A study of Mus musculus with 8 samples.

Results

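Transcripts known from myeloid and B cells were followed array by array in sorted medullary thymic epithelial cells (mTECs). The set holds 29 genes of the 22446 named on the array and is defined by symbol, as genes known from macrophages, other myeloid cells, B cells or leukocytes in general. A named probe existed for 28 of them. Of these, 23 were tested, meaning that a probe lay above the array background on both arrays of at least 1 group. The other 5 with a probe (Fcgr1, Spi1, Fgr, Cybb and Ms4a1) did not pass that filter, and Cd79a had no named probe. The question put to the data was whether these genes rise together in a sorted population or one by one.

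Total RNA of sorted mouse mTECs was hybridised to Illumina bead arrays, 8 in all. The 4 groups were CD80low and CD80high mTECs of mice with a TEC-specific Hipk2 gene knockout, that is, one restricted to thymic epithelial cells, and the same subsets of mice labelled as mating wildtype control. Each group had 2 biological replicates, so that an exact permutation test of 1 gene between 2 groups could not give a p under 0.333. The strain and age of the mice, the driver of the deletion and whether animals were pooled are not given in the sources used here.

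mTECs display self antigens of other tissues to developing T cells, and CD80, a costimulatory ligand, is high on the mature ones. Under Aire and other regulators, and in mTEC subtypes that resemble peripheral cells, they transcribe many genes otherwise kept to other lineages. The thymus also holds macrophages, dendritic cells and B cells, whose products include lysozyme, complement C1q, Fc receptors with their signalling chains, and the B cell receptor complex. In RNA from a bulk sort, fewer cells of a type and less RNA per cell cannot be told apart.

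The epithelial label was checked against its markers. Of 13 epithelial genes, 12 or 13 were above background on each array, and their changes between subsets, in both directions, are counted at the end. Krt8, a keratin of simple epithelia, lay between 13.26 and 13.90 on the normalised log2 intensity scale on all 8 arrays, and Aire between 8.03 and 8.41 in CD80low and between 12.75 and 12.88 in CD80high cells. Between 21402 and 23667 probes (46.4% to 51.4%) lay above background. Hipk2, the targeted gene, has 4 probes, of which the brightest read 7.03 to 7.52 on control and 7.12 to 7.98 on knockout arrays. The other probe above background on all 8 arrays read 6.62 and 6.46 in control against 5.79 and 6.26 in knockout CD80low cells, and 5.85 and 5.71 against 5.592 and 5.599 in CD80high cells, so that each knockout array lay below both control arrays of its subset. The position of these probes relative to the deleted part was not given in the sources used here, so neither checks the genotype labels. CD80low replicate 1 stood apart from CD80low replicate 2 in both genotypes. Over 18 thymocyte genes the deposited intensities summed to 21682 (control) and 22803 (knockout) in replicate 1, against 5863 and 5846 in replicate 2 and 4026 to 4856 on the CD80high arrays.

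The start regions of 5 of the genes are shown because their transcripts were higher in CD80high cells of both genotypes. They are RefSeq promoters of build GRCm38.p6, from 250 bases before to 50 bases after the start, and 20 of the 29 genes had an entry. Short motifs were searched on both strands, each separately and with overlaps allowed: GAGGAA, the core of the box bound by PU.1 and SpiB, GGGA and CC with any 4 bases between them for NF-kB, and GGAA and GAAA with any 2 bases between them for paired ETS and IRF factors. Capitals mark the matches in Fcer1g (chr1:171234300-171234599, minus strand), Laptm5 (chr4:130913066-130913365, plus strand) and C1qb (chr4:136886151-136886450, minus strand). Lyz1 (chr10:117292819-117293118, minus strand) and Lyz2 (chr10:117282223-117282522, minus strand) held no match, and capitals there mark the bases without an identical partner in the alignment of the 2 promoters.
Fcer1g: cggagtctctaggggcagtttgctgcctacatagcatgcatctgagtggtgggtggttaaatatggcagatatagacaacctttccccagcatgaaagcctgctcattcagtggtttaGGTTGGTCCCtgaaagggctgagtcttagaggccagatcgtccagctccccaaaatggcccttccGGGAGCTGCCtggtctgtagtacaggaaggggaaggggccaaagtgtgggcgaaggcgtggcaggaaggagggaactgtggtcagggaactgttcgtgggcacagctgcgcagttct
Laptm5: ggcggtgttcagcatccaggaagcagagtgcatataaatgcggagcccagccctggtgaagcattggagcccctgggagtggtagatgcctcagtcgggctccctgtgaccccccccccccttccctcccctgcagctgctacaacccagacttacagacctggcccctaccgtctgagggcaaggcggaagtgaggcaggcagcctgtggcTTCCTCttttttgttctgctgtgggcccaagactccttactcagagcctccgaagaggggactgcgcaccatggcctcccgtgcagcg
C1qb: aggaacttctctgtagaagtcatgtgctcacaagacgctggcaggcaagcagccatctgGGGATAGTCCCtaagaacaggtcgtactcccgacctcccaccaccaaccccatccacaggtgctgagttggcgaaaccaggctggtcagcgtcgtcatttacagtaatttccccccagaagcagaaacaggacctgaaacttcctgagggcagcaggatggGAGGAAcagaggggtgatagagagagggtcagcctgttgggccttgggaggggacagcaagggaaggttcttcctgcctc
Lyz1: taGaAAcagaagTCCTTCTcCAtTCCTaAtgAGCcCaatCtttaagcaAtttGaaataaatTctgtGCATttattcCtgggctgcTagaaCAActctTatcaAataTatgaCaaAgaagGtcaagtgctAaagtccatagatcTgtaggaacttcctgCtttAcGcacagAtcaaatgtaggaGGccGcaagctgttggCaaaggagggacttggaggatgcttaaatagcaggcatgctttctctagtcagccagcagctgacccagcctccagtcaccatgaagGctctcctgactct
Lyz2: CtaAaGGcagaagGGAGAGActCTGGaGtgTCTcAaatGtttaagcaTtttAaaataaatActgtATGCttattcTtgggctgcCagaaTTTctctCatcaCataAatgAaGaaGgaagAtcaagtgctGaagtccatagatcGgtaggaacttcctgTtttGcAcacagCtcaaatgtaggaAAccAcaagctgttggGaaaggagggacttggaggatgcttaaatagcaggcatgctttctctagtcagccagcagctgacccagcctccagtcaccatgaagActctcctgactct

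Fcer1g held 2 matches to the NF-kB motif, Laptm5 held 1 to GAGGAA, and C1qb held 1 to GAGGAA and 2 overlapping ones to the NF-kB motif. Of the 20 genes with a promoter, 13 held GAGGAA, which lies in 28.3% of all 32851 promoters, 7 held the NF-kB motif (20.7% of all) and 4 held the ETS and IRF motif (2.72% of all). Among these 20 genes, 12 were called higher in CD80high cells with genotypes averaged. Of those 12, 7 held GAGGAA, 3 the NF-kB motif and 2 the ETS and IRF motif, so the matches were not confined to genes that rose. GAGGAA also lay in the promoters of Fcgr1 and Cybb, whose probes stayed near background here. A match describes letters in this window and is not a measured site. The promoters of Lyz1 and Lyz2, neighbouring paralogs with starts 10596 bases apart, were identical in 249 of 302 alignment columns (82.5%). The transcripts of such close paralogs can share a probe's signal, so values of the 2 lysozymes are uncertain as to which gene they measure.

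Most of the tested genes were higher in CD80high than in CD80low mTECs, in both genotypes, by amounts that ranged from under 1.5-fold to 25.4-fold. In control mTECs 15 of the 23 were called higher and 1 lower (limma, adjusted p under 0.05), where 40.6% of all 14768 genes tested were called, 21.8% as higher and 18.8% as lower. In knockout mTECs 15 were again called higher and 1 lower, beside 39.9% of all genes, 21.5% as higher and 18.4% as lower. The genes called higher in both genotypes numbered 13. The share of all genes called higher in both was not counted and can be at most 21.5%. With the genotypes averaged, 18 were higher and 2 lower, beside 55.2% of all genes, 28.2% as higher and 27% as lower. All 4 CD80high arrays lay above all 4 CD80low arrays for 17 of the 23 (26.7% of all genes) and below them for 1 (25.9% of all genes). The median log2 change of the 23 was 1.40 in control and 1.25 in knockout cells, and that of all genes tested was -0.02 and -0.03. Some genes owe their place among the 23 to 1 subset: Tyrobp, C1qa, Clec7a and Fcgr3 passed the filter on dim probes only through CD80high groups, and Mpeg1 only through CD80low groups, so the direction of these genes is tied to the filter. With no filter, 15 of 28 genes were called in control cells (24.6% of 22446 genes), 15 in knockout cells (24.1%) and 19 with genotypes averaged (34.6%). Without the 2 CD80low arrays of replicate 1, with 1 array left in each CD80low group, the median log2 change of the 23 was 1.34 in control and 1.30 in knockout cells. That of all genes was then -0.08 and -0.07.

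**Figure D1:**
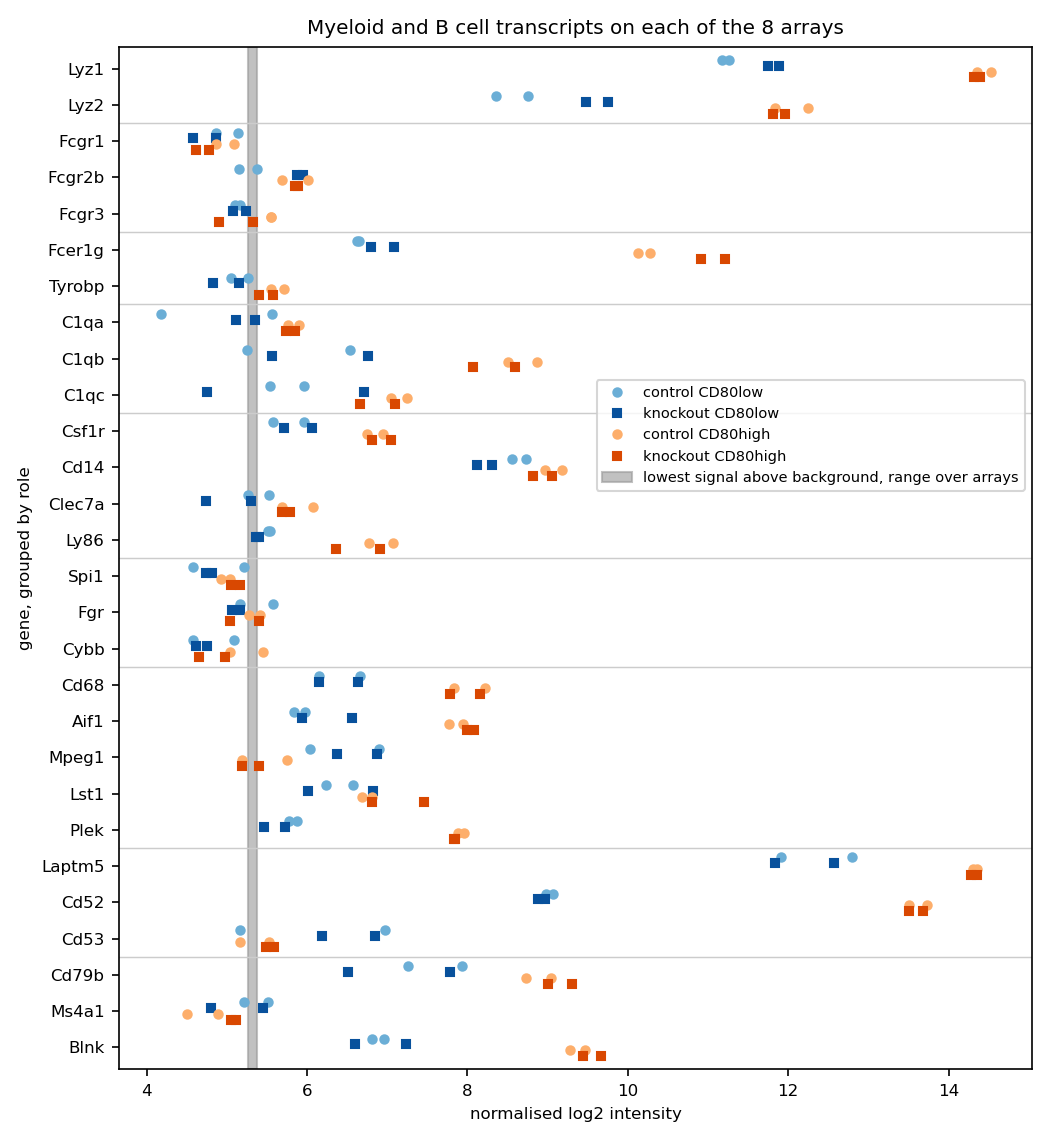
Normalised log2 intensity of the 28 genes with a probe on each array, with genes in rows grouped by role and 2 points per group. The grey band gives the lowest signal above background over the 8 arrays, and Fcgr1, Spi1, Cybb and Ms4a1 sit at or below it on nearly all arrays, while Cd52, Fcer1g and the lysozymes part the subsets widely.

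The lysozymes break down the peptidoglycan of bacterial walls, Lyz2 in macrophages and neutrophils and Lyz1 in Paneth cells of the gut. Lyz1 read 11.26 and 11.17 in control CD80low, 11.89 and 11.75 in knockout CD80low, 14.35 and 14.52 in control CD80high and 14.32 and 14.39 in knockout CD80high cells. Lyz2 read 8.75 and 8.35, 9.76 and 9.48, 12.25 and 11.84, and 11.81 and 11.96 in the same order. All CD80high arrays lay above all CD80low arrays for both genes. Lyz1 rose by 3.22 ± 0.185 (SE, log2, adjusted p = 9.72e-07) in control and by 2.53 ± 0.185 (adjusted p = 3.23e-06) in knockout cells. Lyz2 rose by 3.49 ± 0.228 (adjusted p = 1.65e-06) and 2.27 ± 0.228 (adjusted p = 2.63e-05), or 11.2-fold and 4.82-fold. Probes disagreed on the size: the other 2 Lyz1 probes, near 6.3 to 7.2 in CD80low cells, rose by 5.31 and 4.75 in control and by 4.35 and 4.32 in knockout cells.

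Fcer1g encodes the gamma chain, a small membrane protein with an immunoreceptor tyrosine-based activation motif (ITAM) that carries signals for several Fc receptors, and Tyrobp encodes the like adaptor DAP12. Fcer1g read 6.64 and 6.63 in control CD80low, 6.80 and 7.09 in knockout CD80low, 10.12 and 10.28 in control CD80high and 11.21 and 10.91 in knockout CD80high cells. It rose 11.8-fold in control cells (log2 3.56 ± 0.201, SE, adjusted p = 9.72e-07) and 17.3-fold in knockout cells (4.12 ± 0.201, adjusted p = 5.52e-07). The averaged rise ranked 141 among 14768 genes. Tyrobp stayed near background: 5.26 and 5.06, 5.15 and 4.83, 5.55 and 5.72, and 5.41 and 5.57 in the same order, above it on 4 arrays, all of them CD80high. Its change was not called within a genotype (adjusted p = 0.0836 in control and 0.0710 in knockout cells). It entered the test only through the CD80high arrays. Averaged over genotypes its change was 0.49 ± 0.143 (adjusted p = 0.0140), and the call was lost with no background correction (0.18, adjusted p = 0.0630), on the deposited values (0.17, adjusted p = 0.0792), and without knockout CD80low replicate 2 (0.42, adjusted p = 0.0530), control CD80high replicate 2 (0.44, adjusted p = 0.0663) or knockout CD80high replicate 2 (0.44, adjusted p = 0.0537). Where neither CD80low array was above background, the CD80high mean was set against the lowest signal above it, on the background-corrected scale. For Tyrobp this bound was 1.22-fold in control and 1.10-fold in knockout cells. It is no minimum rise, since the direction is tied to the filter and the change was smaller without the correction.

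The Fc receptors that use or oppose such chains lay close to background. Fcgr1, the high-affinity receptor for IgG, was above background on 0 of 8 arrays, with values from 4.58 to 5.13. Fcgr3, an activating receptor of low affinity, read 5.11 and 5.16, 5.24 and 5.07, 5.56 and 5.56, and 4.91 and 5.32 in the order of groups above, and was not called in any comparison of subsets (adjusted p = 0.123 in control and 0.887 in knockout cells). Fcgr2b, the inhibitory receptor of B cells and myeloid cells, read 5.38 and 5.15, 5.88 and 5.95, 6.01 and 5.68, and 5.89 and 5.85. Only its control CD80low arrays were low. Its change was 0.58 ± 0.198 (adjusted p = 0.0384) in control and -0.04 ± 0.198 (adjusted p = 0.886) in knockout cells. The control call was lost in 12 of 20 settings, among them no background correction (0.24, adjusted p = 0.102), the mean of its tested probes (0.35, adjusted p = 0.128) and leaving out control CD80low replicate 2 (0.47, adjusted p = 0.162), control CD80high replicate 1 (0.41, adjusted p = 0.268) or replicate 2 (0.72, adjusted p = 0.0612), and knockout CD80high replicate 1 (adjusted p = 0.0554) or replicate 2 (adjusted p = 0.0601). Another 4 Fcgr2b probes stood near background, with changes between -0.33 and 0.12 in control cells.

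C1qa, C1qb and C1qc lie side by side on chromosome 4 and encode the chains of C1q, the recognition part of the classical complement pathway, made largely by macrophages. C1qb read 5.25 and 6.53 in control CD80low, 5.56 and 6.76 in knockout CD80low, 8.87 and 8.51 in control CD80high and 8.59 and 8.06 in knockout CD80high cells. It rose by 2.80 ± 0.449 (SE, log2, adjusted p = 6.45e-04) and by 2.17 ± 0.449 (adjusted p = 0.00327), or 6.97-fold and 4.49-fold. Subsets did not overlap, though the CD80low replicates lay over 1 log2 unit apart. C1qc read 5.53 and 5.96, 4.75 and 6.70, 7.25 and 7.05, and 7.10 and 6.66 in the same order, so that 1 knockout CD80high array lay below the higher knockout CD80low array. Its change was called in control cells (1.40 ± 0.488, adjusted p = 0.0421) and not in knockout cells (1.15 ± 0.488, adjusted p = 0.0859). With no background correction the control change was 0.78 (adjusted p = 0.0417), and with a trended prior the call was lost (1.40, adjusted p = 0.0809). The control call was lost without any 1 of 6 arrays, among them control CD80low replicate 1 (1.18, adjusted p = 0.169) and control CD80high replicate 1 (1.30, adjusted p = 0.157). The others were control CD80low replicate 2 (adjusted p = 0.0675), control CD80high replicate 2 (adjusted p = 0.101), and knockout CD80high replicate 1 (adjusted p = 0.0600) and replicate 2 (adjusted p = 0.0579). Averaged over genotypes it was 1.28 ± 0.345 (adjusted p = 0.00972), and 0.78 without knockout CD80low replicate 1 (adjusted p = 0.00519). C1qa, above background on 5 arrays, read 4.17 and 5.56, 5.12 and 5.35, 5.90 and 5.77, and 5.85 and 5.74. It entered the test only through the CD80high arrays and was called only with genotypes averaged (0.76 ± 0.254, adjusted p = 0.0261). With no background correction that change was 0.28 (adjusted p = 0.0501) and on the deposited values 0.29 (adjusted p = 0.0351). It was at 0.43 without control CD80low replicate 1 (adjusted p = 0.0400), and was not called without knockout CD80low replicate 1 (0.72, adjusted p = 0.0545) or any 1 of the 4 CD80high arrays (0.72 to 0.78, adjusted p = 0.0553 to 0.0744).

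Among surface receptors of myeloid cells, Csf1r is the receptor of macrophage colony-stimulating factor, Cd14 a co-receptor for lipopolysaccharide, Clec7a the beta-glucan receptor Dectin-1, and Ly86 the partner of the B cell and myeloid receptor RP105. Ly86 read 5.53 and 5.51 in control CD80low, 5.40 and 5.36 in knockout CD80low, 7.07 and 6.77 in control CD80high and 6.91 and 6.36 in knockout CD80high cells. Csf1r read 5.97 and 5.58, 5.71 and 6.06, 6.75 and 6.94, and 7.04 and 6.81 in that order. Neither overlapped between subsets. Ly86 rose by 1.40 ± 0.224 (SE, log2, adjusted p = 6.34e-04) in control and 1.25 ± 0.224 (adjusted p = 0.00136) in knockout cells, and Csf1r by 1.07 ± 0.221 (adjusted p = 0.00307) and 1.04 ± 0.221 (adjusted p = 0.00384). With no background correction the rises in control cells were 0.73 for Ly86 and 0.57 for Csf1r. Cd14 read 8.73 and 8.56, 8.31 and 8.11, 8.97 and 9.18, and 9.05 and 8.82, a change of 0.43 ± 0.198 (adjusted p = 0.109) in control and 0.72 ± 0.198 (adjusted p = 0.0146) in knockout cells. The knockout call was lost without knockout CD80low replicate 2 (0.62, adjusted p = 0.0902) or knockout CD80high replicate 1 (0.61, adjusted p = 0.102). Clec7a, above background on 5 arrays, ranged from 4.74 to 5.52 in CD80low and from 5.69 to 6.07 in CD80high cells. It entered the test only through the CD80high arrays. It was called in knockout cells (0.72 ± 0.240, adjusted p = 0.0355) and not in control cells (adjusted p = 0.130). Its bound in knockout cells was 1.31-fold, which, as for Tyrobp, is no minimum rise. The knockout call was lost with no background correction (0.27, adjusted p = 0.106), on the deposited values (0.26, adjusted p = 0.121), with a normexp offset of 50 (0.39, adjusted p = 0.0757) and with no filter (adjusted p = 0.0510). It was also lost without knockout CD80low replicate 1 (0.45, adjusted p = 0.236) and without either knockout CD80high array (adjusted p = 0.146 and 0.0986). Averaged over genotypes it was 0.60 ± 0.170 (adjusted p = 0.0118), and 0.50 without control CD80high replicate 1 (adjusted p = 0.0594).

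The transcription factor, kinase and oxidase genes of myeloid cells were not detected well enough to be tested. Spi1, which encodes PU.1, the factor that directs myeloid and B cell development, was above background on 0 of 8 arrays and lay between 4.58 and 5.22. Cybb, the catalytic subunit of the phagocyte NADPH oxidase, lay between 4.58 and 5.45 and was above background on 1 array. Fgr, a Src-family kinase, lay between 5.04 and 5.58 and was above background on 3 arrays of 3 groups. At these intensities a change would have to lift a probe out of the background to be seen.

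Of 5 other myeloid proteins, 3 were higher in CD80high cells, 1 was lower and 1 was not called. Plek, a protein kinase C substrate of platelets and leukocytes, read 5.77 and 5.87 in control CD80low, 5.47 and 5.72 in knockout CD80low, 7.95 and 7.88 in control CD80high and 7.83 and 7.85 in knockout CD80high cells. It rose by 2.09 ± 0.187 (SE, log2, adjusted p = 1.22e-05) and 2.24 ± 0.187 (adjusted p = 7.64e-06), and by 1.31 in control cells with no background correction. Aif1, an actin-binding protein of macrophages and microglia, rose by 1.95 ± 0.230 (adjusted p = 7.70e-05) and 1.79 ± 0.230 (adjusted p = 1.47e-04), from 5.84 to 6.56 on CD80low arrays to 7.77 to 8.08 on CD80high arrays. Its control rise was 1.23 with no background correction. Cd68, a glycoprotein of late endosomes and lysosomes, rose by 1.62 ± 0.263 (adjusted p = 7.04e-04) and 1.58 ± 0.263 (adjusted p = 8.38e-04), from 6.14 to 6.66 up to 7.79 to 8.21. None of these overlapped between subsets.

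Mpeg1, a pore-forming protein of phagocytes, went the other way. It read 6.04 and 6.90 in control CD80low, 6.37 and 6.87 in knockout CD80low, 5.19 and 5.75 in control CD80high and 5.19 and 5.40 in knockout CD80high cells, so that every CD80low array was above every CD80high array. It entered the test only through the CD80low arrays, so its direction is tied to the filter. A second Mpeg1 probe, above background on 0 arrays, changed by -0.13 in control and 0.55 in knockout cells. For the tested probe the log2 change was -0.9999 ± 0.311 (SE, adjusted p = 0.0260) in control and -1.33 ± 0.311 (adjusted p = 0.00661) in knockout cells. The control call was lost without control CD80low replicate 2 (-0.57, adjusted p = 0.185) or control CD80high replicate 1 (-0.72, adjusted p = 0.192), and the knockout call without knockout CD80high replicate 1 (-1.22, adjusted p = 0.0519). With no background correction the changes were -0.49 (adjusted p = 0.0652) and -0.64 (adjusted p = 0.0254), and on the deposited values -0.46 (adjusted p = 0.0931) and -0.61 (adjusted p = 0.0372). Lst1, a small membrane protein of leukocytes, read 6.57 and 6.23, 6.01 and 6.82, 6.69 and 6.81, and 7.46 and 6.81 in the same order, and was not called (adjusted p = 0.387 in control and 0.0819 in knockout cells).

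Of the membrane proteins found on most leukocytes, Cd52, a short glycoprotein anchored by lipid, showed the largest rise of the 23 genes in both genotypes when each gene is taken by its brightest probe; a dimmer Lyz1 probe, as given above, rose more in control cells. Cd52 read 9.06 and 8.97 in control CD80low, 8.88 and 8.96 in knockout CD80low, 13.51 and 13.73 in control CD80high and 13.68 and 13.50 in knockout CD80high cells. The rise was 24.3-fold in control cells (log2 4.60 ± 0.189, SE, adjusted p = 5.67e-07) and 25.4-fold in knockout cells (4.67 ± 0.189, adjusted p = 5.48e-07). Averaged, it ranked 43 among 14768 genes, and a second Cd52 probe rose by 4.90 and 4.75. Laptm5, a lysosomal membrane protein that limits antigen receptor signalling, read 12.80 and 11.91, 12.58 and 11.84, 14.30 and 14.35, and 14.28 and 14.35. It rose by 1.97 ± 0.311 (adjusted p = 5.77e-04) and 2.11 ± 0.311 (adjusted p = 3.78e-04). Cd53, a tetraspanin of leukocytes, read 6.97 and 5.16, 6.85 and 6.19, 5.16 and 5.52, and 5.59 and 5.49, and the subsets overlapped in control cells. It was called lower only with genotypes averaged (-0.85 ± 0.331, adjusted p = 0.0495), and that call was lost in 13 of 20 settings, among them no background correction (-0.43, adjusted p = 0.0847), the deposited values (-0.40, adjusted p = 0.0993), a normexp offset of 50 (-0.57, adjusted p = 0.0608), no filter (adjusted p = 0.0518), the mean of probes (adjusted p = 0.0531) and the trended prior (adjusted p = 0.0789). Without control CD80low replicate 1 that change was -0.40 (adjusted p = 0.117), without control CD80low replicate 2 it was -1.30 (adjusted p = 4.34e-04), and it was not called without knockout CD80low replicate 1 (-0.69, adjusted p = 0.121) or any 1 of the 4 CD80high arrays (-0.76 to -0.94, adjusted p = 0.0698 to 0.133). The 2 CD80low arrays of replicate 1, which are high in Cd53, are those with the high thymocyte sums, whose part in this was not tested.

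For the B cell receptor, Cd79b encodes the beta signalling chain, Blnk the adaptor that links the receptor to downstream kinases, and Ms4a1 the surface protein CD20. Blnk read 6.81 and 6.96 in control CD80low, 6.60 and 7.24 in knockout CD80low, 9.28 and 9.46 in control CD80high and 9.44 and 9.66 in knockout CD80high cells. It rose by 2.49 ± 0.237 (SE, log2, adjusted p = 1.86e-05) and 2.63 ± 0.237 (adjusted p = 1.26e-05), and its second probe by 2.02 and 2.64. Cd79b read 7.93 and 7.25, 7.78 and 6.51, 9.04 and 8.73, and 9.31 and 9.003, with no overlap between subsets. It rose by 1.29 ± 0.377 (adjusted p = 0.0194) and 2.01 ± 0.377 (adjusted p = 0.00177). The control call was lost without control CD80low replicate 2 (0.95, adjusted p = 0.120), control CD80high replicate 1 (1.14, adjusted p = 0.112) or control CD80high replicate 2 (1.45, adjusted p = 0.0504). Ms4a1 was above background on 2 arrays, both CD80low, and lay between 4.50 and 5.11 on the CD80high arrays.

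**Figure D2:**
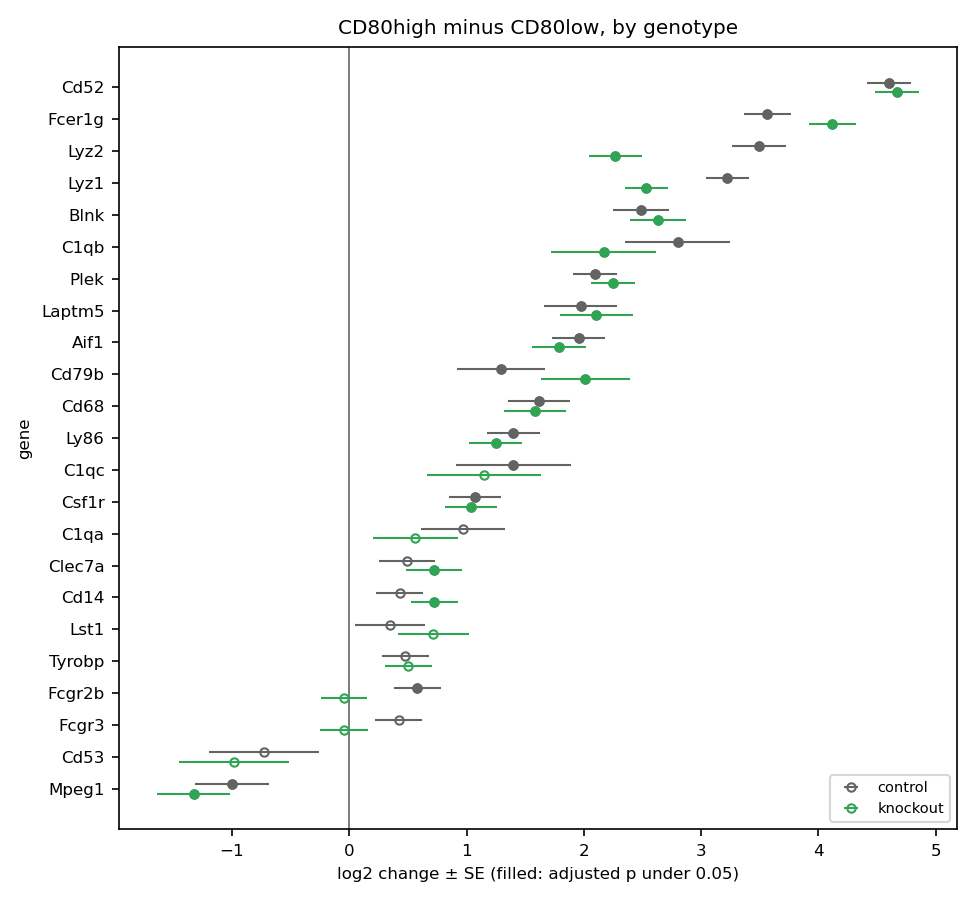
Log2 change ± SE of CD80high against CD80low for the 23 tested genes, in rows ordered by the averaged change, in control and knockout cells. Cd52 and Fcer1g lead with rises of 3.56 to 4.67, most genes lie right of 0 in both genotypes, and Mpeg1 lies left of it at -0.9999 and -1.33.

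Other genes of the same cell types were counted from lists drawn up beside the 29. In control cells 9 of 13 other macrophage genes were higher and 0 lower in CD80high mTECs, with a median of 0.78, led by the mannose receptor Mrc1 (3.77, adjusted p = 4.59e-06) and Gpnmb (2.94, adjusted p = 9.78e-06). Itgam, Cx3cr1, Ccr2, Msr1 and Vsig4, chosen after their values were seen, were above background on 0 or 1 array. Of the 18 macrophage genes with a probe, 7 to 9 were above background on CD80low and 12 to 14 on CD80high arrays. The summed deposited intensity of that list was 4001 to 5472 on CD80low and 6243 to 7084 on CD80high arrays. Of 8 dendritic cell genes 4 were higher (median 0.91), among them langerin Cd207 (3.00, adjusted p = 1.37e-05), while Itgax, Flt3, Xcr1 and Clec9a, also chosen after their values were seen, were above background on 0 or 1 array. Of the 16 dendritic cell genes with a probe, 7 to 8 were above background on CD80low and 8 to 11 on CD80high arrays. Of 11 other B cell genes 5 were higher (median 0.75), led by the kinase Blk (2.66, adjusted p = 9.86e-06) and the IgE receptor Fcer2a (2.39, adjusted p = 5.52e-05). Pax5, Cr2 and Bank1, chosen in the same way, were above background on 0 arrays. Of the 14 other B cell genes with a probe, 7 to 9 were above background on CD80low and 10 to 11 on CD80high arrays.

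Lists of partner genes gave uneven counts as well. Of 10 NADPH oxidase and lysosomal genes 6 were higher and 0 lower in control CD80high cells (median 1.07). The oxidase subunits Ncf4 and Cyba rose by 3.75 (adjusted p = 1.33e-06) and 2.97 (adjusted p = 1.84e-06), while the catalytic subunit Cybb, as given above, stayed near background in both subsets. Of 8 kinases and adaptors downstream of ITAM chains 2 were higher and 0 lower (median -0.24; in knockout cells 3 and 1), among them Pik3ap1 (0.78, adjusted p = 0.0105) and Btk (0.72, adjusted p = 0.0350). Of 13 granulocyte and mast cell genes 10 were higher and 0 lower (median 2.53), with the eosinophil granule protein Prg2 at 4.54 (adjusted p = 2.06e-06) and myeloperoxidase Mpo at 3.53 (adjusted p = 1.30e-06). That list summed to 3686 to 5643 on CD80low and 21416 to 26032 on CD80high arrays. Fcer1a, the chain of the IgE receptor that pairs with the product of Fcer1g, was chosen after its values were seen: it lay between 4.70 and 5.00 on CD80low and between 7.52 and 8.06 on CD80high arrays.

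Leukocyte genes shared by lymphoid and myeloid cells were called in both directions. Of 12 tested, 1 was higher and 1 lower in control CD80high cells (median -0.41): Rac2, a small GTPase of blood cells, rose by 1.97 (adjusted p = 0.0105) and Vav1 fell by 2.78 (adjusted p = 8.82e-05). In knockout cells 1 was higher and 3 were lower, and with genotypes averaged 2 were higher and 6 lower. Ptprc, the leukocyte marker CD45, chosen after its values were seen, lay between 4.76 and 5.26 on CD80high and between 4.95 and 5.81 on CD80low arrays. Of 15 thymocyte genes 0 were higher and 4 lower in control cells (median -1.91, beside 18.8% of all genes lower), 3 were lower in knockout cells and 11 with genotypes averaged (beside 27% of all genes lower). In control cells 10 of 12 mature mTEC genes were higher (median 1.37, Aire 4.51) and 11 of 13 thymic tuft cell genes were lower (median -2.41). The summed deposited intensity of the 28 genes with a probe was 10740 to 14876 on CD80low and 63930 to 69195 on CD80high arrays. A few bright genes made up most of it, so the sum does not measure a joint rise. On control CD80high replicate 1, with the sum of 63930, Lyz1 read 20828, Laptm5 19976 and Cd52 11555. The part of other cell types in these values was not tested.

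**Figure D3:**
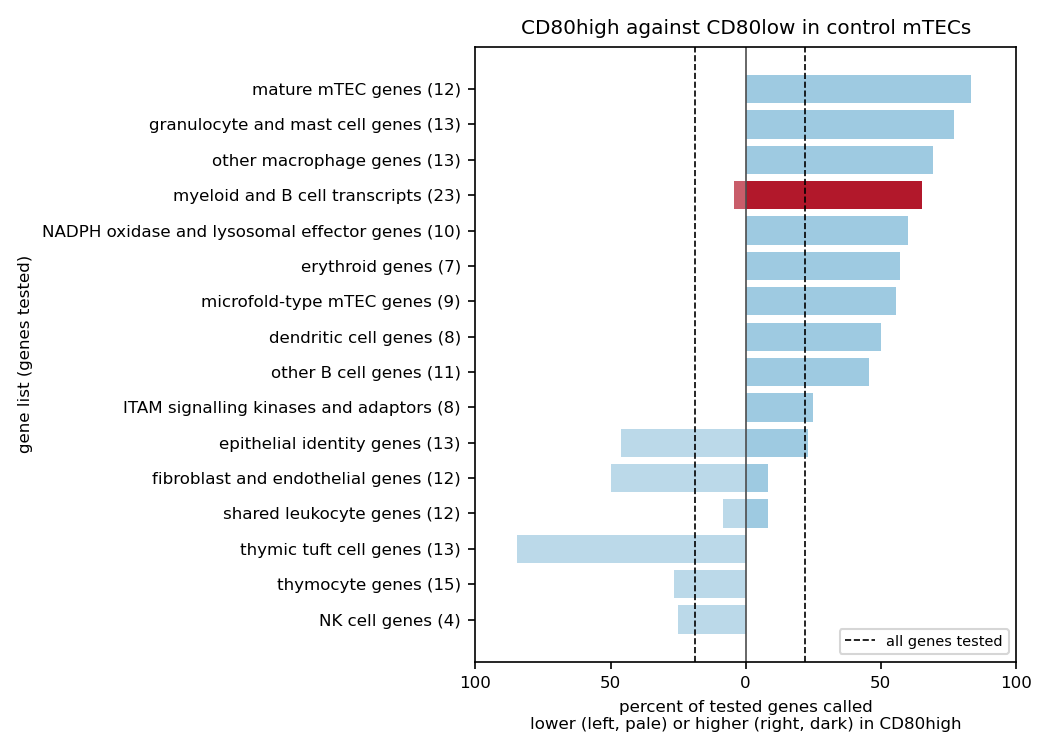
Percent of the tested genes of each list called higher (right) or lower (left) in CD80high against CD80low control mTECs, with the number tested in brackets and dashed lines at 21.8% and 18.8%, the shares of all genes. The 23 myeloid and B cell transcripts (15 higher, 1 lower) lie between mature mTEC genes (10 of 12 higher) and thymocyte genes (4 of 15 lower).

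The replicates of CD80low cells gave a second view of which genes move together. Laptm5, Cd53 and Cd79b were higher in replicate 1 by more than 0.5 log2 units in both genotypes, by 0.89 and 0.74, 1.81 and 0.66, and 0.68 and 1.27. C1qb was lower in replicate 1 by more than 0.5 in both, at -1.28 and -1.20. Among all genes tested, 3.3% were above 0.5 and 3.26% below -0.5 in both genotypes. The remaining 19 genes moved past 0.5 in the same direction in at most 1 genotype: C1qa by -1.39 and -0.23, C1qc by -0.43 and -1.95, Cd68 by -0.52 and -0.48, and Mpeg1 by -0.87 and -0.49. Blnk moved by -0.16 and -0.64. Aif1 (0.14 and -0.62), Clec7a (0.27 and -0.56) and Lst1 (0.34 and -0.81) differed in sign between genotypes. Of the 4 genes with the largest averaged rises, Cd52 differed by 0.09 and -0.08, Fcer1g by 0.02 and -0.29, Lyz2 by 0.40 and 0.28, and Lyz1 by 0.09 and 0.14. The thymocyte genes Cd3d, Cd3e and Cd3g, chosen after their values were seen, lay at 11.31 to 12.43 in replicate 1 and at 7.44 to 8.38 in replicate 2. These are differences between 2 samples a group and carry no test.

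**Figure D4:**
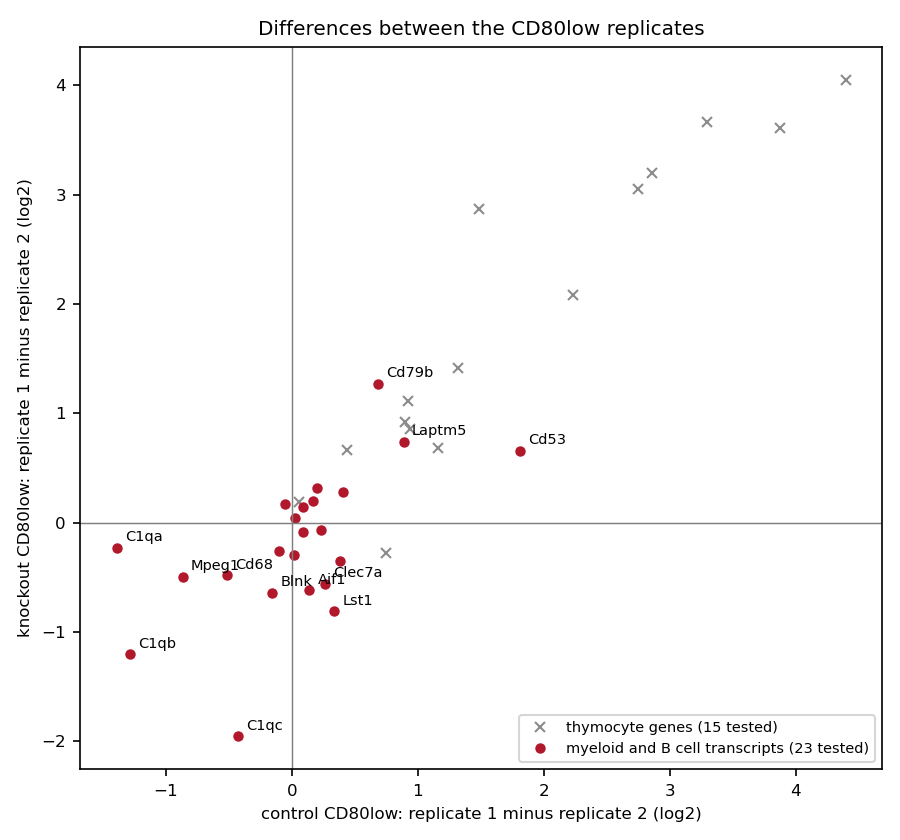
Replicate 1 minus replicate 2 of CD80low cells on the log2 scale, in control (horizontal) and knockout cells (vertical), for the 23 tested genes (filled circles) and 15 thymocyte genes (crosses). Cd53, Laptm5 and Cd79b lie on the side of the thymocyte genes, and C1qb, at -1.28 and -1.20, lies opposite.

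None of these genes was called between Hipk2 knockout and control cells. In CD80low cells 0 of 23 passed (limma, adjusted p under 0.05) beside 1 of all 14768 genes (0.00677%), and the same counts held in CD80high cells and with the subsets averaged (0.00677% each). The count over all genes moved with the setting while that of the members stayed at 0: in CD80low cells it was 24 without control CD80low replicate 2, 9 without knockout CD80low replicate 2, 4 without knockout CD80low replicate 1 and 16 with the trended prior. With the subsets averaged these counts were 17, 7, 4 and 16. Without adjustment, at p under 0.05, 3 genes passed in CD80low cells, all higher in knockouts, where 6.79% of all genes passed and 2.38% were higher. There was 1 in CD80high cells (1.59% of all genes), and there were 3 with subsets averaged (5.18% of all genes). Median log2 changes were 0.02 in CD80low and -0.05 in CD80high cells, beside 0.01 and 0.00 for all genes. The difference between the genotype effects of the subsets was called for 0 of 23 genes and 0 of all genes (0%; 4 of all genes without knockout CD80low replicate 2), with 3 of 23 at an unadjusted p under 0.05 beside 3.29% of all genes.

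Lyz2 showed the smallest p of the 23 in CD80low cells. Its knockout arrays, at 9.76 and 9.48, lay above the control arrays at 8.75 and 8.35, a difference of 1.07 ± 0.228 (SE, log2, adjusted p = 0.194). Lyz1 differed by 0.61 ± 0.185 and Fcgr2b by 0.65 ± 0.198 (adjusted p = 0.433 each), also without overlap. In CD80high cells the 3 genes differed by -0.16 ± 0.228, -0.08 ± 0.185 and 0.03 ± 0.198, and the differences between subsets were -1.22 ± 0.322, -0.69 ± 0.261 and -0.62 ± 0.280 (adjusted p = 1.00 each). Other probes gave smaller values in CD80low cells: 0.46 and 0.01 for Lyz1, and 0.39 for the second Lyz2 probe above background. In CD80high cells the other 2 Lyz1 probes differed by -0.51 and -0.42, with both knockout arrays below both control arrays. The second Lyz2 probe differed by 0.06 there. The granulocyte and mast cell list summed to 3686 and 5643 on the 2 control CD80low arrays and to 5422 and 5459 on the knockout ones.

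Fcer1g showed the smallest p in CD80high cells. Its knockout arrays, at 11.21 and 10.91, lay above the control arrays at 10.12 and 10.28, a difference of 0.86 ± 0.201 (SE, log2, adjusted p = 1.00, unadjusted p = 0.00156). In CD80low cells it was 0.31 ± 0.201 (adjusted p = 0.941), again with both knockout arrays above both control arrays, and averaged over subsets it was 0.58 ± 0.142 (adjusted p = 0.361). Of the other genes, Cd52, Cd68, Laptm5 and Csf1r differed by -0.15 to 0.11 between genotypes in either subset. Wider differences, none of them called, included Cd79b (-0.45), Cd53 (0.45) and Cd14 (-0.43) in CD80low cells. In CD80high cells they included Fcgr3 (-0.44) and Lst1 (0.39). Aif1 differed by 0.17 in CD80high cells and its second probe by 0.57. A difference that does not pass is not shown to be absent. The knockout arrays lay wholly above the control arrays for 4 of 23 genes in CD80low cells and wholly below for 4, where 15.2% and 15.8% of all genes did so. In CD80high cells these numbers were 3 and 2, beside 13.1% and 15.1%.

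**Figure D5:**
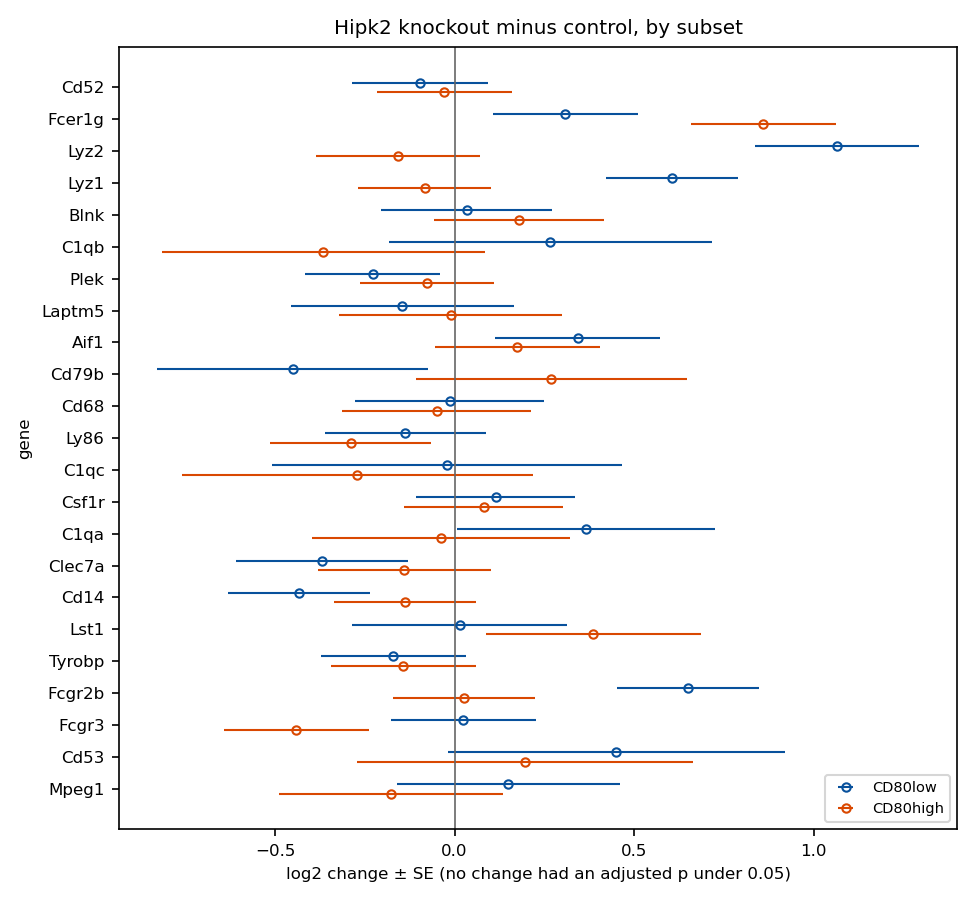
Log2 change ± SE of Hipk2 knockout against control in CD80low and CD80high cells for the 23 tested genes, in the row order of the subset plot. All points lie between -0.45 and 1.07, with Lyz2 in CD80low (1.07) and Fcer1g in CD80high cells (0.86) farthest from 0, and none was called.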

How the data were processed

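The values are the authors' deposited intensities of 46089 probes on a linear scale, with array columns named by sample. Per the labels' protocols, 200 ng of total RNA was amplified and labelled with biotin. The authors' scaling of the arrays was not given in the sources used here. A table of 16 columns of per-array values, named only by slide and position, was not used because no label ties them to samples. By the platform's annotation 35667 probes had 1 symbol, 0 had several and 10422 had none. Of 28742 with an Entrez identifier, 28519 were found in RefSeq GRCm38.p6.

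Deposited intensities were background-corrected with normexp (limma 3.58.1, R 4.3.3, offset 16), quantile-normalised and log2-transformed. The filter on dim probes asked for a deposited value higher than the mode of that array's background by 1.645 SDs (SD taken from values under the mode) on both arrays of at least 1 group. This kept 24209 probes (52.5%) and 14768 genes, each represented by its brightest tested probe. A bound sets the brighter group's mean against the lowest signal above background, on the background-corrected scale only. One limma fit with a mean for each of the 4 groups gave 7 contrasts (4 residual and 6.23 prior degrees of freedom), with two-sided p-values adjusted by Benjamini-Hochberg over all genes tested. The procedure was tested on simulated data. An array has no read depth: signal over background and 2 arrays a group limit the precision, and p-values measure the spread between these replicates.

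The 29 genes, the role groups and the 15 other lists were chosen with earlier results of these data known. The text names all 29 genes and, of other lists, at most the 2 tested genes with the smallest p in a contrast; for any other gene the text states that the choice followed its values. Motifs and the promoter alignment were computed in Python 3.11.15 with Biopython 1.88. The alternatives were other background, normalisation, filter, probe, prior and weighting choices, a replicate block, and leaving out arrays.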

Additional observations from a re-analysis of the deposited data

How the results depend on the processing

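No change of direction was found under the alternatives run for a called gene, or for one at an unadjusted p under 0.05 between genotypes. None of the 7 counts of called genes of the set moved past 1.5 times the reported one, which says little for counts of 0. The median change between genotypes in CD80low cells, near 0 at 0.02, did change sign, to -0.05 without control CD80low replicate 1. Genes called between subsets numbered 14 to 17 in control, 15 to 16 in knockout and 17 to 20 with genotypes averaged under other processing choices of the same 8 arrays without a block. The shares called over all genes were 24.6% to 44%, 24.1% to 43% and 34.6% to 58.6%, the lowest with no filter. Leaving out 1 array leaves 1 in its group. The counts called then ranged more widely and are not given. Adjusted p-values and calls stated for such settings in the text rest on 1 array in that group. The median log2 changes of the 23 to 25 genes then tested were 1.17 to 1.45, 0.95 to 1.41 and 1.18 to 1.46. Leaving out both CD80low arrays of replicate 2, chosen after seeing the data, gave medians of 1.38, 1.23 and 1.19 over the 25 genes then tested. Under each of these settings 0 of the genes were called between genotypes. Of the 13 genes called higher in both genotypes, 12 kept both calls in every setting; Cd79b was the exception. Sizes of dim genes depend on the background step, since values near background are compressed without it, and the cause was not tested further. Replicate numbers are not stated to mark shared animals or sorts. Same-numbered deviations from the group means correlated at 0.503 between the CD80low groups, 0.468 between the CD80high groups and 0.0679 to 0.137 across subsets, over 14768 genes. With a replicate block 17, 16 and 20 genes were called between subsets, beside 45.6%, 44.6% and 59.4% of all genes. With a replicate block within subset 19, 19 and 21 were called, beside 52.8%, 51.9% and 65.1% of all genes. None of the 23 genes was called between genotypes with either block, while over all genes the CD80low genotype calls went from 1 to 14 with the first and to 50 with the second. That count over all genes was 59 without both CD80low arrays of replicate 2 and 6 without both of replicate 1. Groups of 2 arrays are too small to name an outlying array.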

Other observations

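Erythroid genes differed among themselves. In control cells 4 of 7 were higher and 0 lower in CD80high mTECs (median 0.72), led by the anion exchanger Slc4a1 (3.06, adjusted p = 9.03e-06) and Alas2 (2.65, adjusted p = 1.06e-05), the first enzyme of haem synthesis in red cells. The globins Hba-a1 and Hbb-b1, chosen after their values were seen, lay at 11.17 to 12.16 in CD80low replicate 1, at 7.38 to 8.03 in CD80low replicate 2 and at 8.70 to 10.45 in CD80high cells. Slc4a1 lay between 4.76 and 5.66 on all 4 CD80low arrays and between 7.93 and 8.09 on the CD80high arrays.

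Of 9 microfold-type mTEC genes 5 were higher and 0 lower in control CD80high cells (median 0.97), with the chemokine Ccl9 at 4.08 (adjusted p = 8.95e-07) and the decoy receptor Tnfrsf11b at 4.06 (adjusted p = 9.10e-07). Of 12 fibroblast and endothelial genes 1 was higher and 6 were lower in control cells (2 and 4 in knockout cells), with the matrix proteoglycans Dcn at -2.55 (adjusted p = 1.41e-05) and Lum at -1.93 (adjusted p = 9.89e-05). Of 4 NK cell genes 0 were higher and 1 was lower in control cells, 1 was higher and 0 lower in knockout cells (Eomes, 0.94, adjusted p = 0.00873), and 2 were higher and 1 lower with genotypes averaged. Of 13 epithelial genes 3 were higher and 6 lower in control cells, and 4 were higher and 4 lower in knockout cells. Spib, which encodes a relative of PU.1, was chosen after its values were seen: it lay between 7.52 and 8.05 on CD80low and between 8.75 and 8.95 on CD80high arrays, while Spi1 was above background on none of the 8.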
